A study of Mus musculus with 9 samples.

Results

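The 10 genes described here are grouped as markers of the meninges and the mesenchyme that surrounds the embryonic brain, though Vtn RNA is found mostly in pericytes there. All 10 were read in an experiment that asked which cortical RNAs are bound by Pum2. They were taken by name, with earlier results of these data known, and all 10 were found among the 22180 genes measured. They are the transcription factor genes Twist1, Foxc1, Foxc2 and Zic1, the adhesion glycoprotein gene Vtn, the fibrillar collagen genes Col1a1, Col1a2 and Col3a1, and the small proteoglycan genes Dcn and Lum. The question for each was whether its RNA was higher after precipitation with the Pum2 antibody than after precipitation with nonspecific IgG, and than in total RNA. RNA was measured on Mouse Gene 2.0 ST arrays in 3 groups of 3 biological replicates: Pum2 precipitate, IgG precipitate and input. All groups came from freshly dissected cortex of mouse embryos of the CD1 strain, wild type in genotype and collected on embryonic day 12 or 13 (the labels give the 2 days together), and the labels do not say how many embryos or litters made up a replicate. The precipitates were compared with each other and with input, and no Pum2-deficient tissue is among the samples analysed here.

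Pum2 is a Pumilio protein, which recognises a short motif in the 3′ untranslated region of messenger RNAs and usually lowers their translation or stability. RNA immunoprecipitation pulls such a protein down with an antibody and measures the RNA that comes with it, and RNA that sticks to the beads or to any antibody also appears in the IgG control. The meninges are layers of mesenchymal cells that cover the brain, and over the forebrain of the mouse they descend largely from the cranial neural crest. They build the collagen-rich matrix and the outer basement membrane of the cortex, and they send retinoic acid, bone morphogenetic proteins and Cxcl12 to the precursors below. In a dissected cortex they are a minor tissue beside the precursors and neurons.

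Values below are log2 signals as deposited, and a log2 difference is given with its standard error (SE), tested with limma across all genes and called at an adjusted p below 0.05. Against IgG, 6 of the 10 genes rose in the Pum2 precipitate (Twist1, Vtn, Dcn, Foxc1, Lum and Zic1) and none fell, beside 19.4% of all genes that rose and 11.4% that fell. Against input, 9 of 10 rose in the Pum2 precipitate and none fell, beside 21.6% and 13.1% of all genes. In the IgG precipitate against input, 4 of 10 rose (Zic1 and the 3 collagen genes) and none fell, beside 8.25% and 9.72% of all genes. Bright genes were called more often: among the 11090 genes at or above the median signal, 34.1% rose over IgG and 37% over input with Pum2, and 13.8% rose in IgG over input. The counts of every list below are to be read beside these shares, also where they are not repeated. Of the 10 genes, 9 lay at or above that median (Foxc2 did not), and all calls fell among these. The median log2 difference of the 10 was 0.43 for Pum2 over IgG, against 0.04 for all genes. It was 0.79 for Pum2 over input, against 0.07, and 0.13 for IgG over input, against 0.02.

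**Figure D1:**
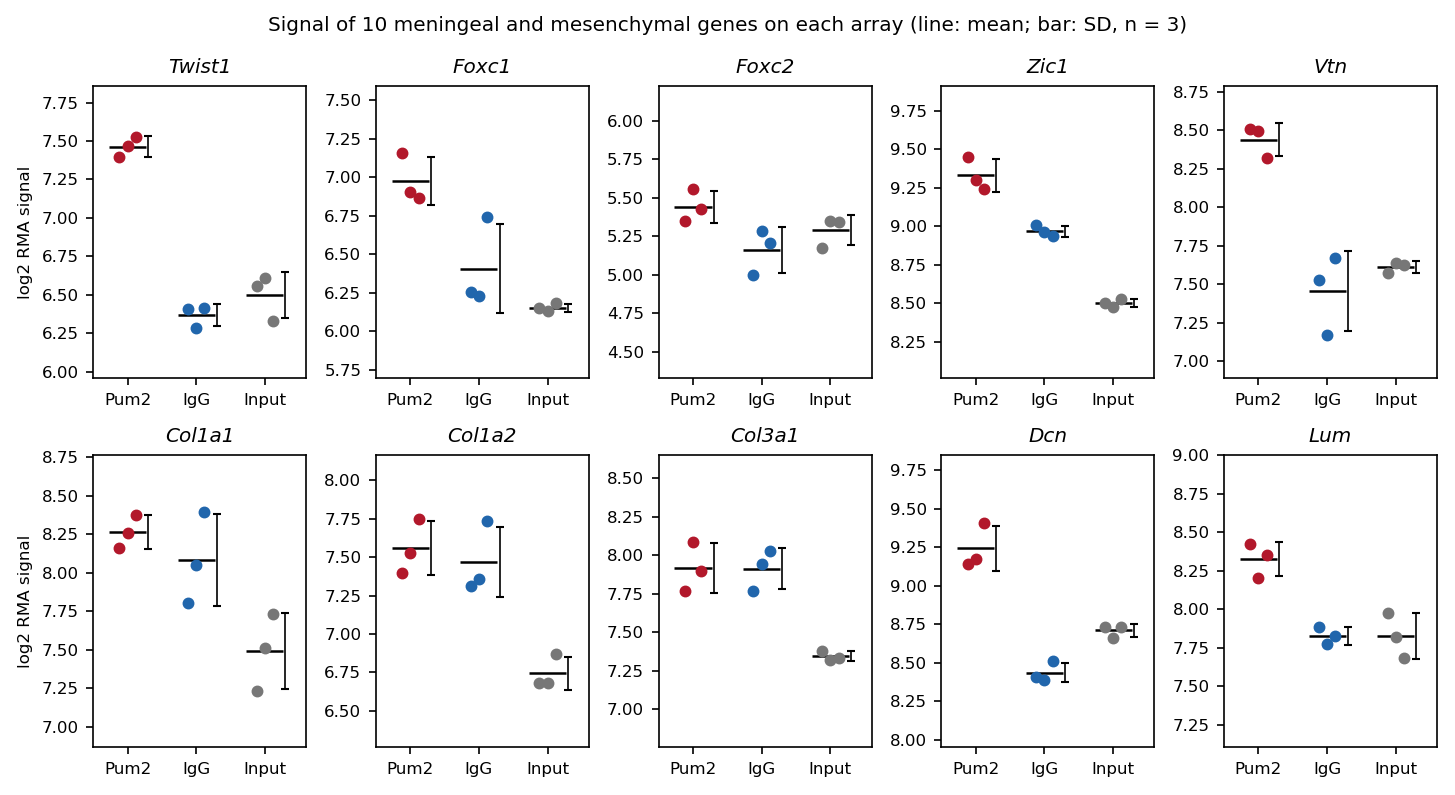
Log2 signal (vertical axis) of each of the 10 genes on each array, 1 panel per gene, with the 3 Pum2 arrays, the 3 IgG arrays and the 3 input arrays side by side as points the group mean as a line and its SD as a bar. For Twist1, Vtn, Dcn and Lum the Pum2 arrays lie above all IgG and input arrays, while for Col1a1, Col1a2 and Col3a1 the Pum2 and IgG arrays overlap above the input arrays.

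Among the transcription factor genes, Twist1 encodes a helix-loop-helix factor needed in cranial mesenchyme and neural crest. Its log2 signal was 7.39, 7.47 and 7.53 in the Pum2 precipitates, 6.41, 6.29 and 6.42 in the IgG precipitates, and 6.56, 6.61 and 6.33 in the input. The 3 Pum2 arrays stood apart from the other 6, and the IgG and input arrays overlapped. Twist1 was 1.09 ± 0.09 (SE) higher with Pum2 than with IgG, 2.13-fold, with an adjusted p of 2.02e-05 by limma. Over input it was 0.96 ± 0.09 higher, 1.95-fold, with an adjusted p of 2.17e-05 by limma. IgG was lower than input by a difference of -0.13, not called (limma adjusted p 0.39). Twist1 had the largest rise over IgG of the 10.

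Foxc1 encodes a forkhead factor without which the mouse meninges do not form properly over the cortex. It read 7.16, 6.91 and 6.87 with Pum2, 6.26, 6.23 and 6.74 with IgG, and 6.15, 6.13 and 6.18 in the input. All Pum2 arrays lay above all others, but IgG replicate 3 was close to them and set an SD of 0.29 in the IgG group, against 0.16 in the Pum2 group and 0.03 in the input. Foxc1 rose by 0.57 ± 0.14 (SE), 1.48-fold, over IgG (limma adjusted p 0.00921) and by 0.82 ± 0.14, 1.77-fold, over input (limma adjusted p 8.39e-04). IgG exceeded input on all arrays, by 0.25, but the difference was not called (limma adjusted p 0.25).

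Foxc2, a close relative of Foxc1 with partly shared roles in mesenchyme and vessels, was the 1 gene of the 10 with a signal below the median of all genes. Its log2 signal was 5.35, 5.55 and 5.42 with Pum2, 4.997, 5.28 and 5.20 with IgG, and 5.18, 5.35 and 5.34 in the input. The Pum2 arrays did not overlap the IgG arrays, and the lowest of them equalled the highest input array to 2 decimals. The log2 difference over IgG was 0.28 ± 0.10 (SE), with a 95% interval of 0.06 to 0.50 and a limma adjusted p of 0.0519, just above the threshold of 0.05. Over input it was 0.15 ± 0.10, with an interval of -0.06 to 0.37 (limma adjusted p 0.268). The call over IgG was gained when IgG replicate 2 was left out (0.34, limma adjusted p 0.0378).

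Zic1 encodes a zinc finger factor of the meninges, the dorsal midline and the medial forebrain. It read 9.45, 9.30 and 9.24 with Pum2, 9.01, 8.96 and 8.94 with IgG, and 8.50, 8.47 and 8.53 in the input, so that the 3 groups formed 3 separate steps. Zic1 rose over IgG by 0.36 ± 0.07 (SE), 1.29-fold (limma adjusted p 0.0043), and over input by 0.83 ± 0.07, 1.78-fold (limma adjusted p 1.77e-05). It also rose in IgG over input by 0.47 ± 0.07, 1.38-fold (limma adjusted p 0.00212). Of the 6 genes higher with Pum2 than with both controls, it was the 1 that was also called in IgG over input.

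Vtn encodes vitronectin, a plasma and matrix glycoprotein that binds integrins of the αv class, and in the mouse brain its RNA is found mostly in pericytes. Its log2 signal was 8.51, 8.49 and 8.32 in the Pum2 precipitates, 7.53, 7.17 and 7.67 in the IgG precipitates, and 7.57, 7.64 and 7.63 in the input. The Pum2 arrays lay well above the other 6, among which IgG and input overlapped. Vtn rose over IgG by 0.98 ± 0.12 (SE), 1.98-fold (limma adjusted p 1.82e-04), and over input by 0.83 ± 0.12, 1.78-fold (limma adjusted p 3.72e-04). The IgG arrays were spread more widely (SD 0.26) than the Pum2 arrays (SD 0.11) and the input arrays (SD 0.04), and IgG did not differ from input past the threshold (-0.16, limma adjusted p 0.436).

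Dcn and Lum encode decorin and lumican, small leucine-rich proteoglycans that bind collagen fibrils and limit their thickness; decorin also binds TGF-β. The 2 genes are adjacent in the RefSeq annotation of GRCm38.p6. Dcn read 9.14, 9.17 and 9.41 with Pum2, 8.41, 8.39 and 8.51 with IgG, and 8.73, 8.66 and 8.73 in the input. The 3 groups did not overlap, with the IgG arrays lowest and the Pum2 arrays highest. Dcn rose with Pum2 by 0.81 ± 0.09 (SE) over IgG, 1.75-fold (limma adjusted p 8.41e-05), and by 0.53 ± 0.09 over input, 1.45-fold (limma adjusted p 7.7e-04). The difference of IgG from input was -0.27 ± 0.09, with a 95% interval of -0.47 to -0.08 and a limma adjusted p of 0.0544. That last call was gained when Pum2 replicate 3 was left out, which changes the shared spread but neither group (limma adjusted p 0.0272).

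Lum read 8.42, 8.20 and 8.35 with Pum2, 7.89, 7.77 and 7.83 with IgG, and 7.98, 7.82 and 7.68 in the input. Its Pum2 arrays lay above all others, and its IgG arrays fell within the range of the input arrays. It rose over IgG by 0.50 ± 0.09 (SE), 1.41-fold (limma adjusted p 0.00254), and over input by 0.50 ± 0.09, 1.42-fold (limma adjusted p 0.0019). IgG differed from input by 0.00 (limma adjusted p 0.986).

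The fibrillar collagen genes showed another order of the groups: both precipitates lay above input. Col1a1 and Col1a2 encode the 2 chains of type I collagen, and Col3a1 the chain of type III collagen, the main fibrils of soft connective tissue. Col1a1 read 8.16, 8.26 and 8.38 with Pum2, 7.80, 8.05 and 8.40 with IgG, and 7.23, 7.51 and 7.73 in the input. Its highest single value was on an IgG array, and no input array reached the lowest IgG value. It rose over input by 0.77 ± 0.16 (SE), 1.71-fold, with Pum2 (limma adjusted p 0.00345) and by 0.59 ± 0.16, 1.51-fold, with IgG (limma adjusted p 0.0278). Pum2 over IgG was 0.18 ± 0.16, with a 95% interval of -0.18 to 0.54 (limma adjusted p 0.457), which leaves room for a rise of up to 1.45-fold. The call of IgG over input was lost without IgG replicate 2 (0.61, limma adjusted p 0.0635), IgG replicate 3 (0.44, limma adjusted p 0.09), input replicate 1 (0.46, limma adjusted p 0.0961) or input replicate 2 (0.60, limma adjusted p 0.0682).

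Col1a2 read 7.40, 7.53 and 7.75 with Pum2, 7.31, 7.36 and 7.73 with IgG, and 6.68, 6.68 and 6.87 in the input. The precipitates overlapped each other and lay above every input array. The rise over input was 0.81 ± 0.13 (SE), 1.76-fold, with Pum2 (limma adjusted p 6.58e-04) and 0.72 ± 0.13, 1.65-fold, with IgG (limma adjusted p 0.00364). Pum2 over IgG was 0.09 ± 0.13, with a 95% interval of -0.20 to 0.38 (limma adjusted p 0.665), an upper bound of 1.30-fold. A second, dimmer feature carries the same gene symbol. In a fit of all features it was 0.66 ± 0.23 higher with Pum2 than with IgG and did not pass (limma adjusted p 0.0714). Its rise over input with Pum2, 0.54 ± 0.23, did not pass either (limma adjusted p 0.128). IgG lay 0.12 below input there (limma adjusted p 0.806), so the 2 features differ in the order of IgG and input.

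Col3a1 read 7.77, 8.08 and 7.90 with Pum2, 7.77, 7.94 and 8.03 with IgG, and 7.38, 7.32 and 7.33 in the input. The lowest array of each precipitate had the same value to 2 decimals. The rise over input was 0.57 ± 0.10 (SE), 1.49-fold, with Pum2 (limma adjusted p 0.00114) and 0.57 ± 0.10, 1.48-fold, with IgG (limma adjusted p 0.0032). Pum2 over IgG had a 95% interval of -0.22 to 0.23 (limma adjusted p 0.98), an upper bound of 1.17-fold. The sign of this difference turned in other settings, as did that of Col1a2.

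**Figure D2:**
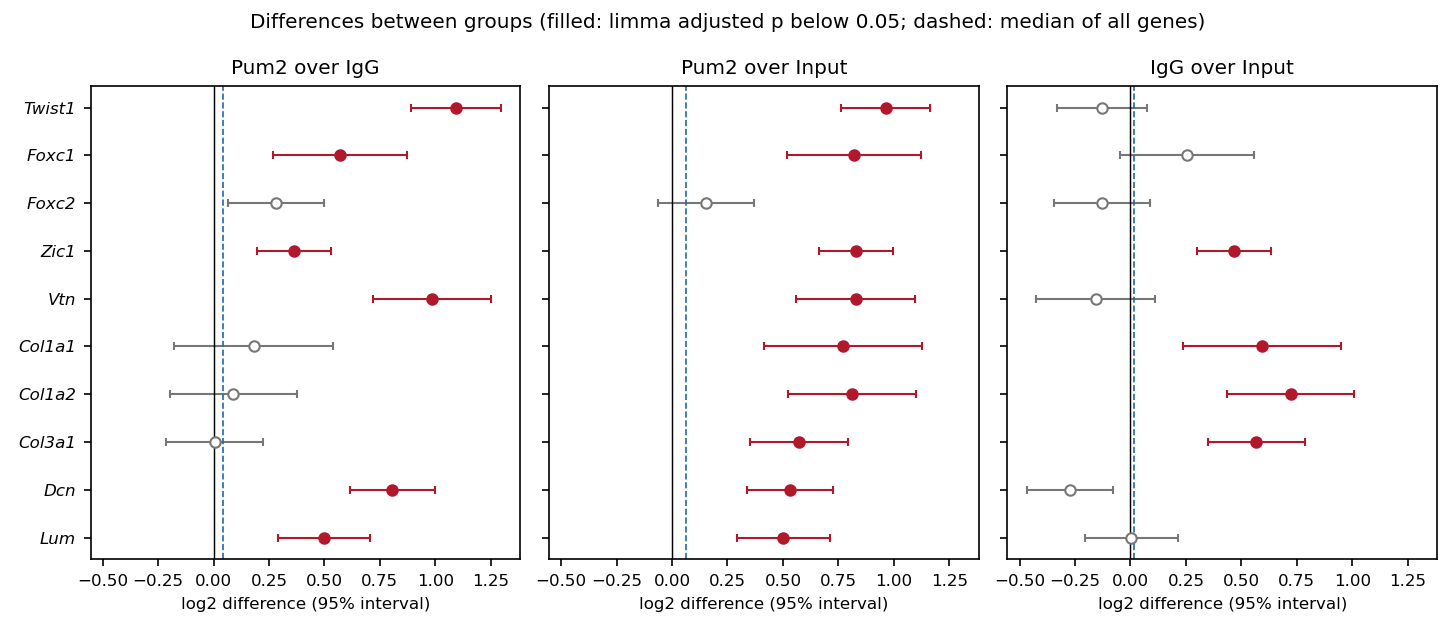
Log2 difference (horizontal axis) of each of the 10 genes in the 3 comparisons (Pum2 over IgG on the left, then each precipitate over input), with 95% intervals as bars, filled points for an adjusted p below 0.05 by limma, and a dashed line at the median of all genes. Twist1, Vtn and Dcn have the largest rises over IgG, at 1.09, 0.98 and 0.81, and the 3 collagen genes lie between 0.00 and 0.18 there but between 0.57 and 0.72 in IgG over input.

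Counting both controls together, 6 of the 10 genes (60%) rose with Pum2 over IgG and over input, beside 3148 of 22180 genes (14.2%). The shares in this paragraph are of all genes, dim ones included. Of the 10, 9 lay at or above the median signal, where rises were more common, and shares for such genes alone are not given here. All but Zic1 of the 6 were not called in IgG over input. Pum2 arrays lay wholly above IgG arrays for 7 of 10 genes, beside 25.9% of all genes, and wholly below for none, beside 15.4%. They lay wholly above input arrays for 9, beside 28.5%, and wholly below for none, beside 16.8%. IgG arrays lay wholly above input arrays for 5, beside 15.9%, and wholly below for 1, beside 16.2%. A rise of at least 1.5-fold that was also called was seen for 3 genes over IgG (Twist1, Vtn and Dcn), beside 6.53% of all genes, and for 6 over input, beside 8.31%. In IgG over input it was seen for 2, Col1a1 and Col1a2, beside 1.9%. Pum2 over IgG and Pum2 over input share the Pum2 arrays, and each control also enters IgG over input, so the counts of the comparisons are not independent of each other.

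The genes next to the 10 in the same annotation moved both ways. Of 17 such neighbours measured that are not among the 10, 5 rose and 3 fell with Pum2 over IgG, and 9 were not called. Of all genes, 19.4% rose and 11.4% fell. The largest rise was that of Gmds, beside Foxc1 (0.78 ± 0.09, SE, limma adjusted p 1.25e-04). The largest fall was that of Bet1, beside Col1a2 (-0.94 ± 0.09, limma adjusted p 3.78e-05). Some neighbours of the same gene family as a member were also looked at singly, and all named here were chosen after their values were seen. Foxf2, beside Foxc1, rose over IgG by 0.35 ± 0.10 (SE, limma adjusted p 0.0262), with a signal below the median of all genes. Foxl1, beside Foxc2, differed by 0.08 (limma adjusted p 0.649), and Zic4, beside Zic1, by -0.11 (limma adjusted p 0.502). Kera, beside Lum, differed by 0.06 (limma adjusted p 0.657), and Col5a2, beside Col3a1, by -0.11 (limma adjusted p 0.535).

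The cortical label and the tissue of origin of these RNAs were set against other markers. Of 8 further meningeal or mesenchymal markers, 4 had a signal at or above the median of all genes (Prrx1, Col5a1, Col6a1 and Fbln1) and 4 below it (Foxd1, Tbx18, Twist2 and Postn). The median splits all genes evenly, so this count does not bear on the label. Foxd1, Prrx1, Fbln1 and Col5a1 also belong to the lists that follow. The 3 of 8 that rose with Pum2 over IgG, beside 19.4% of all genes, were Foxd1 (0.52, limma adjusted p 0.024), Fbln1 (0.71, limma adjusted p 1.21e-04) and Postn (0.57, limma adjusted p 0.049). In bulk tissue, fewer cells of a type and less RNA per cell cannot be told apart.

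Other transcription factors of meningeal and cranial mesenchyme were mostly not called against IgG. Of 14 measured, 3 (21.4%) rose with Pum2 over IgG and none fell, a share near the 19.4% of all genes, with a median log2 difference of 0.16 against 0.04 for all genes. These were Foxd1, Snai1 and Msx2, which lie below the median signal and are named here after their values were seen. The count was 1 without Pum2 replicate 1 or Pum2 replicate 3. Over input 7 of 14 rose (4 without Pum2 replicate 2, Pum2 replicate 3 or input replicate 3), with a median of 0.31, among them the Zic1 relatives Zic2, by 0.42 ± 0.11 (SE, limma adjusted p 0.0107), and Zic5, by 0.39 ± 0.08 (limma adjusted p 0.00268). In IgG over input 3 of 14 rose (1 without IgG replicate 2, input replicate 1 or input replicate 2), among them Zic5, by 0.29 ± 0.08 (limma adjusted p 0.0287), and Prrx1, a homeobox gene of limb and head mesenchyme, by 0.30 ± 0.08 (limma adjusted p 0.0328). Prrx1 differed by -0.10 in Pum2 over IgG (limma adjusted p 0.427).

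Signals and retinoid genes of the meninges were mixed. Of 16 measured, 3 (18.8%) rose and 1 fell with Pum2 over IgG, a share of rises near the 19.4% of all genes, with a median of 0.18. The count of rises was 1 without Pum2 replicate 1, IgG replicate 1 or IgG replicate 3, and the fall was lost without Pum2 replicate 3, IgG replicate 1 or IgG replicate 2. Crabp2, which carries retinoic acid to its nuclear receptor, read 11.65, 11.79 and 11.67 with Pum2, 11.29, 11.15 and 11.08 with IgG, and 11.50, 11.52 and 11.34 in the input. It rose over IgG by 0.53 ± 0.09 (SE, limma adjusted p 0.00111) and over input by 0.25 ± 0.09 (limma adjusted p 0.049). Bmp5, a bone morphogenetic protein gene, rose over IgG by 0.62 ± 0.18 (limma adjusted p 0.028). Igf2, a growth factor gene, fell by 0.38 on the log2 scale (limma adjusted p 0.0301). Over input 5 of 16 rose and 1 fell, and the count of rises lay between 1 and 3 when any 1 of the Pum2 or input arrays was left out. In IgG over input none was called by limma either way (1 fell without IgG replicate 1 or input replicate 3), and at an unadjusted p below 0.05 none rose and 1 fell.

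Among 26 other interstitial matrix genes of fibroblasts, 5 (19.2%) rose and 1 fell with Pum2 over IgG, a share of rises near the 19.4% of all genes, and the median of 0.07 was close to the 0.04 of all genes. After renormalising by quantiles or centring on the brighter genes 3 rose and 3 fell, and 3 also fell with genes at or above the median signal. The count of rises was also 3 with all features and without Pum2 replicate 1, Pum2 replicate 3, IgG replicate 1 or IgG replicate 2. Eln, the gene of elastin, rose by 0.76 ± 0.11 (SE, limma adjusted p 5.96e-04), Fbln1, the gene of the elastic fibre and basement membrane protein fibulin-1, by 0.71 ± 0.08, and Sparc, a collagen-binding protein gene, by 0.43 ± 0.09 (limma adjusted p 0.00445). Fbln1 read 9.89, 10.002 and 10.11 with Pum2, 9.29, 9.24 and 9.33 with IgG, and 9.12, 9.27 and 9.15 in the input, with no overlap between the Pum2 arrays and the rest. Ogn, a proteoglycan gene of the same family as Dcn and Lum, fell by 0.62 on the log2 scale (limma adjusted p 0.00923). Over input 10 of 26 rose and none fell, with a median of 0.28 (1 fell without Pum2 replicate 3). In IgG over input 3 of 26 rose: Fbn2, a microfibril gene, by 0.90 ± 0.18 (limma adjusted p 0.00583), Fn1, the gene of fibronectin, by 0.49 ± 0.08 (limma adjusted p 0.00313), and Col5a1, which encodes a collagen that joins type I fibrils, by 0.33 ± 0.07 (limma adjusted p 0.0115).

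Most genes whose products fold, cleave and cross-link collagen rose with Pum2 over IgG, a comparison in which none of the 3 collagen genes was called. Of 20 measured, 14 (70%) rose and 1 fell, with a median log2 difference of 0.49. Serpinh1, the gene of the collagen chaperone Hsp47, read 8.51, 8.38 and 8.22 with Pum2, 7.17, 7.41 and 7.58 with IgG, and 7.87, 7.82 and 7.96 in the input. The 3 groups did not overlap and IgG was lowest. It rose with Pum2 by 0.98 ± 0.11 (SE) over IgG (limma adjusted p 1.25e-04) and by 0.49 ± 0.11 over input (limma adjusted p 0.00648), and in IgG it fell by 0.49 on the log2 scale relative to input (limma adjusted p 0.0127). Plod1, a lysyl hydroxylase gene, rose over IgG by 0.93 ± 0.12 (limma adjusted p 3.21e-04). Pcolce, which encodes an enhancer of procollagen cleavage, rose by 0.84 ± 0.10 (limma adjusted p 2.06e-04). P4ha3, a prolyl 4-hydroxylase subunit gene, fell by 0.45 on the log2 scale (limma adjusted p 0.00911).

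Over input, 14 of the 20 collagen-processing genes rose and 1 fell (2 without input replicate 3), with a median of 0.41. Adamts3, a procollagen peptidase gene, rose by 1.05 ± 0.11 (SE, limma adjusted p 3.69e-05), and P3h1, a prolyl 3-hydroxylase gene, by 0.95 ± 0.11 (limma adjusted p 7.22e-05). Ppib, whose product works in a complex with that hydroxylase, read 9.98, 10.13 and 10.12 with Pum2, 10.18, 10.03 and 10.03 with IgG, and 10.86, 10.88 and 10.82 in the input. Both precipitates lay below every input array, and the fall was 0.78 on the log2 scale with Pum2 (limma adjusted p 2.81e-05) and also with IgG (limma adjusted p 1.99e-04). In IgG over input, 3 of 20 rose and 3 fell, with a median of 0.01. The 3 rises became 1 without IgG replicate 3 or any 1 of the input arrays.

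**Figure D3:**
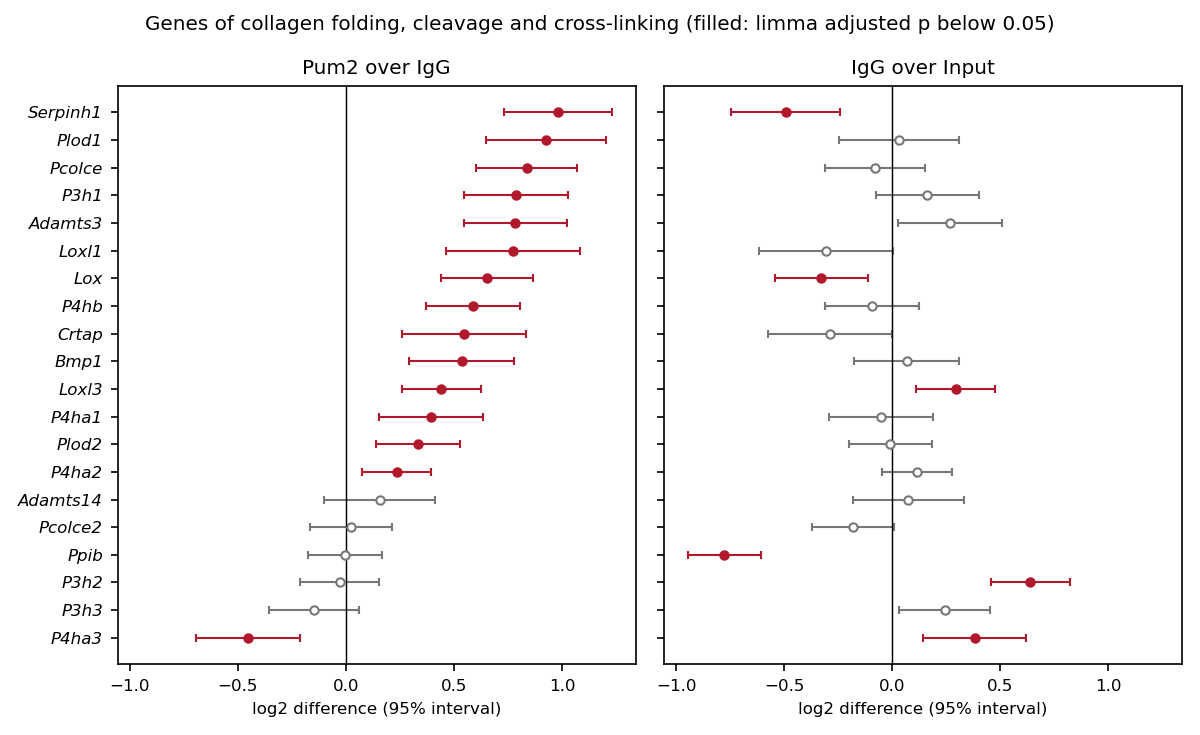
Log2 difference (horizontal axis) of the 20 collagen-processing genes in Pum2 over IgG and in IgG over input, with 95% intervals as bars and filled points for an adjusted p below 0.05 by limma. In Pum2 over IgG 14 of the 20 genes are filled and positive, while in IgG over input 3 of the 20 are.

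Of 12 receptors of collagen and vitronectin measured, 7 (58.3%) rose with Pum2 over IgG, none fell and 5 were not called (median 0.42). Of all genes 19.4% rose, and of those at or above the median signal 34.1%. Over input 11 rose and none fell (median 0.70). Ddr1, a receptor tyrosine kinase gene for collagen, read 10.93, 11.09 and 10.94 with Pum2, 10.32, 10.36 and 10.29 with IgG, and 10.15, 10.25 and 10.14 in the input. It rose over IgG by 0.66 ± 0.07 (SE, limma adjusted p 1.06e-04) and over input by 0.81 ± 0.07 (limma adjusted p 1.95e-05). Itgav and Itgb5 encode the chains of an integrin that binds vitronectin, the product of Vtn, and rose over IgG by 0.51 ± 0.11 (limma adjusted p 0.00539) and 0.57 ± 0.12 (limma adjusted p 0.00477). In IgG over input 4 of 12 rose (2 without IgG replicate 2 or IgG replicate 3), with a median of 0.32. Among them Ddr2, the receptor tyrosine kinase gene for fibrillar collagen, rose by 0.58 ± 0.09 (limma adjusted p 0.00152) and Itgav by 0.49 ± 0.11 (limma adjusted p 0.0117).

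Of 13 basement membrane genes measured, 13 rose with Pum2 over input (median 0.83), 9 rose in IgG over input and 4 were not called there (median 0.47), and 7 rose with Pum2 over IgG (median 0.34), and none fell in any of the 3 comparisons. The 7 became 4 without Pum2 replicate 1, IgG replicate 1 or IgG replicate 2, and 3 after renormalising by quantiles or centring on the brighter genes. Nid1, the gene of the linker protein nidogen-1, read 10.26, 10.30 and 10.44 with Pum2, 9.50, 9.75 and 9.93 with IgG, and 9.41, 9.16 and 9.21 in the input. The groups formed 3 steps, as Zic1 did. Nid1 rose over IgG by 0.61 ± 0.12 (SE, limma adjusted p 0.00284) and in IgG over input by 0.47 ± 0.12 (limma adjusted p 0.0199). Lamb2, a laminin chain gene, rose by 1.06 ± 0.10 with Pum2 over input (limma adjusted p 1.9e-05). With IgG it exceeded input by 0.70 ± 0.10 (limma adjusted p 9.18e-04).

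**Figure D4:**
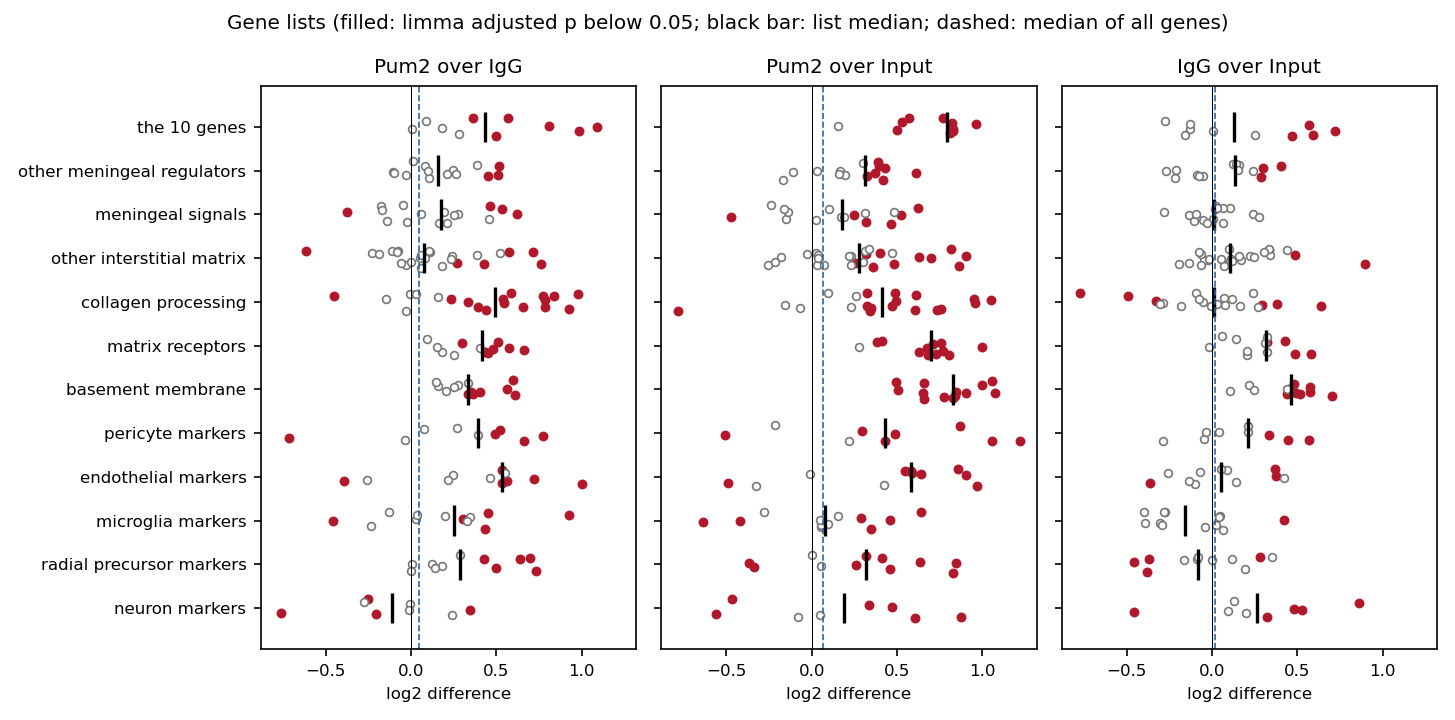
Log2 difference (horizontal axis) of the 10 genes and of every measured gene of 11 other lists (those of the erythroid, neural crest and choroid plexus markers are not drawn), 1 row per list and 1 panel per comparison, with filled points for an adjusted p below 0.05 by limma, a black bar at the median of each list and a dashed line at the median of all genes. The collagen-processing list has a median of 0.49 in Pum2 over IgG and 0.01 in IgG over input, and the basement membrane list has medians of 0.34 and 0.47.

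Markers of other cell types that express some of these genes also moved. Of 9 pericyte and smooth muscle markers, 4 rose and 1 fell with Pum2 over IgG, and their summed linear signal was 1830 to 2041 with Pum2, 1492 to 1537 with IgG and 1189 to 1283 in the input. The pericyte receptor gene Pdgfrb rose over IgG by 0.66 ± 0.09 (SE, limma adjusted p 4.78e-04), while Rgs5, another pericyte marker, fell by 0.71 on the log2 scale (limma adjusted p 7.63e-04). Of 11 endothelial markers, 5 rose and 1 fell over IgG (3 rose without Pum2 replicate 2 or IgG replicate 2, 8 without IgG replicate 3, and the fall was lost without IgG replicate 1, IgG replicate 3 or any 1 of the Pum2 arrays), and their summed signal was 3117 to 3413 with Pum2, 2073 to 2718 with IgG and 2107 to 2269 in the input. Pecam1 was not called over IgG (0.25, limma adjusted p 0.0707). Of 12 markers of microglia and macrophages, 4 rose and 1 fell (1 or 2 rose without any 1 of the Pum2 arrays or without IgG replicate 1, and 1 after centring on the brighter genes), with Csf1r at 0.92 ± 0.18 (limma adjusted p 0.00275). Their summed signal was 851 to 866 with Pum2, 697 to 825 with IgG and 752 to 831 in the input.

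Markers of the cells of the cortex itself and of further cell types were read beside the same shares. Over IgG 45.5% of radial precursor markers rose, all of them at or above the median signal, where 34.1% of genes rose. Of neuron markers, also all at or above the median signal, 12.5% rose, beside the same 34.1%. Their falls, given below, stand beside 11.4% of all genes. Of neural crest markers 20% rose, near the 19.4% of all genes. Of 11 radial precursor markers, 5 rose and none fell with Pum2 over IgG, and their summed signal was 12729 to 13600 with Pum2, 9836 to 10668 with IgG and 10870 to 11344 in the input. Over input, 7 of the 11 rose and 2 fell with Pum2, and 1 rose and 3 fell with IgG. The 2 that fell with Pum2 were Fabp7 (-0.37, limma adjusted p 0.0219) and Hes5 (-0.34, limma adjusted p 0.00851). Sox2, a transcription factor gene of these precursors, read 11.60, 11.62 and 11.67 with Pum2, 10.88, 10.86 and 10.96 with IgG, and 10.71, 10.76 and 10.87 in the input, a rise over IgG of 0.73 ± 0.07 (SE, limma adjusted p 5.09e-05). Of 8 neuron markers, 1 rose and 3 fell over IgG (1 fell without Pum2 replicate 1, Pum2 replicate 2 or IgG replicate 2, and 2 rose without input replicate 2), with a summed signal of 10718 to 11020 with Pum2, 11766 to 12605 with IgG and 9959 to 10717 in the input. Against input, 4 of the 8 rose and 2 fell with Pum2, and 4 rose and 1 fell with IgG. Of 5 neural crest and Schwann cell markers 1 rose, and Sox10, which defines them, lay below the median signal and was not called (0.03, limma adjusted p 0.879). Their summed signal was 270 to 280 with Pum2, 218 to 250 with IgG and 221 to 234 in the input. None of 6 erythroid markers was called over IgG by limma (1 fell after renormalising by quantiles, after centring on the brighter genes, with genes at or above the median signal, and without Pum2 replicate 2 or IgG replicate 3, and at an unadjusted p below 0.05 none rose and 1 fell), and their summed signal was 2117 to 3138 with Pum2, 2687 to 4512 with IgG and 3598 to 4635 in the input. Over input, 3 of the 6 erythroid markers fell with Pum2 and none rose, beside 13.1% of all genes that fell. Among them Hba-x differed by -1.17 ± 0.31 (limma adjusted p 0.014) and Hbb-bh1 by -1.17 ± 0.27 (limma adjusted p 0.00592). In IgG over input none of the 6 was called. None of 7 choroid plexus markers was called over IgG, adjusted or unadjusted. Their summed signal was 224 to 565 with Pum2, 202 to 490 with IgG and 216 to 723 in the input. The part of these lists in the values of the 10 genes was not tested.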

How the data were processed

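RNA of wild-type mouse embryonic cortex was measured in Pum2 precipitates, IgG precipitates and input (3 biological replicates each, per the labels). A commercial kit for RNA-binding proteins gave the precipitates, and RNA was amplified before labelling and hybridisation, per the labels' protocols. The deposited values are log2 signals that the authors made with RMA in Affymetrix Expression Console, per the submitters' processing notes; their versions and the genome build are not given in these sources. RMA corrects background, normalizes arrays and summarises probes, which compresses differences of dim genes.

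The table holds 41345 features, of which 23521 carry 1 gene symbol in the platform annotation, 1814 several and 16010 none. Where a gene had several features, the one brightest on average over the 9 arrays stood for it, giving 22180 genes. All 10 genes described here matched RefSeq gene names of GRCm38.p6, which was used for names and neighbours only. Columns of other samples numbered 0. Array medians over genes lay between 6.05 and 6.10. Over all features they differed by group, at 5.37 to 5.40 (Pum2), 5.54 to 5.57 (IgG) and 5.48 to 5.52 (input). The median SD of a gene within a group was 0.10 (Pum2), 0.12 (IgG) and 0.11 (input). The number of arrays limits the precision.

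A single limma fit (version 3.58.1, R 4.3.3) of the 9 arrays and no replicate block tested all genes, with p-values adjusted by Benjamini-Hochberg over all genes and called below 0.05. The scripts were tested on simulated data. An exact permutation test of 3 against 3 arrays cannot go below 0.1, so calls rest on limma's moderated spread. Replicates come from labels alone, and p-values measure the spread between these arrays.

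The 10 genes and the 14 lists (185 genes, 170 measured) were chosen with earlier results of these data known, so no count over them is independent support. All 10 genes are named. From each list, the rule allowed for each comparison the 3 largest called rises and falls whose arrays do not overlap and whose mean signal is at or above the median of all genes, and 1 defining marker per cell type. Values of a list's other genes are named only as neighbours of the same gene family, as further markers, in a second comparison or where said. No correlation between genes across arrays is given, because the arrays fall into 3 groups. Alternatives were the replicate block, only the compared groups, a filter on dim genes, another variance prior, renormalization, centring, the mean of a gene's features, all features, and leaving out each array.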

Additional observations from a re-analysis of the deposited data

How the results depend on the processing

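Each result was recomputed in 17 alternative settings, of which 9 left out 1 array. Of 30 differences (10 genes in 3 comparisons), 23 kept their direction and their side of the threshold in all settings run, and 17 of the 19 called ones did. The number of the 10 genes called higher was 6 to 7 for Pum2 over IgG, 9 for Pum2 over input and 3 to 4 for IgG over input. Dcn was called lower in IgG over input (1 gene against 0) with the replicate block, with only the compared groups, with genes at or above the median level and with an intensity trend and robust prior, and the count was 0 to 1 with arrays left out. Col1a1 in IgG over input was not called with only the compared groups (limma adjusted p 0.0704) or with all features (0.0571), nor was Col1a2 with the mean of its features (0.30, limma adjusted p 0.248). For Pum2 over IgG, Col3a1 turned to -0.0735 after quantile normalization and -0.0899 after centring on the brighter genes (-0.0799 to 0.0798 with arrays left out), and Col1a2 to -0.0052 after centring (-0.0051 to 0.22). Lum in IgG over input, near 0, ranged from -0.0687 to 0.0787 with arrays left out. The cause was not tested.

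With all features, 6481 features were lower in Pum2 over IgG and 6601 in Pum2 over input, against 2519 and 2895 genes. The array medians over all features were also lowest on the Pum2 arrays, and the cause was not tested. The median of IgG over input moved to 0.25 when the filter dropped Foxc2. Of calls in Pum2 over IgG, 63.0% were higher, 53.5% after quantile normalization, 46.9% after centring and 42.9% with all features. In Pum2 over input 62.3% were, 52.2% after centring and 44.6% with all features. Centring moved the median of all genes by under 0.1. The labels do not say what a replicate number shares, and the numbers were not taken to pair the samples, since not every correlation was over 0.1. The 9 correlations of same-numbered arrays were 0.0015 to 0.14, 3 of them over 0.1, though 8 exceeded those with other numbers. That cut does not show that same-numbered arrays are unrelated, and the main fit leaves out any pairing they may have. With the replicate block, 7 of the 10 genes rose over IgG, Foxc2 being added (limma adjusted p 0.0187), 9 over input and 4 in IgG over input, where Dcn was also called lower (limma adjusted p 0.0456), and 2 erythroid markers fell over IgG. List counts changed by more than 1.5 times, or to or from 0, in 167 of the 1428 alternative values.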

Other observations

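Ttr, the transthyretin gene that marks choroid plexus, differed more between replicate numbers than between groups. It read 8.24, 6.91 and 5.69 in Pum2 replicates 1, 2 and 3, 7.93, 6.26 and 5.29 in the IgG replicates, and 8.72, 6.86 and 5.24 in the input replicates, with a difference in Pum2 over IgG of 0.45 ± 0.93 (SE, limma adjusted p 0.771). Col1a1 also took the same order of replicate numbers in every group, in the other direction, with 8.16, 8.26 and 8.38 in the Pum2 replicates, 7.80, 8.05 and 8.40 in the IgG replicates and 7.23, 7.51 and 7.73 in the input replicates. Both were singled out after their values were seen, and what the numbers share was not tested. With the replicate number as a block, Col1a1 in Pum2 over IgG was 0.18 with a limma adjusted p of 0.172, and Col1a1 in IgG over input had a limma adjusted p of 0.00364.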
